A study of Homo sapiens with 2 samples.

Results

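The genes examined were the box H/ACA small nucleolar RNAs (snoRNAs) and the small Cajal body-specific RNAs (scaRNAs) of HEK293 cells. Members were the genes of type snoRNA or scaRNA in GENCODE v44 whose symbol begins with SNORA or SCARNA. The annotation holds 238 such genes, and 233 of them were listed in the deposited tables, namely 210 SNORA and 23 SCARNA genes out of 59026 genes matched. The remaining 5, which are SNORA74C-2 and further gene identifiers of SNORA16A, SCARNA4, SNORA17B and SNORA50A, were not analysed here. SCARNA9 has the gene type lncRNA in this annotation and so fell outside the rule.

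The data were 2 libraries of ribosomal RNA-depleted total RNA from Flp-In T-Rex cells, an untreated derivative of the human embryonic kidney line HEK293 with a site for inserting a transgene under tetracycline control. They formed 1 group, replicate 1 and replicate 2, and it is not stated that they came from separate cultures, so the spread between them may be technical. The study used these libraries to see which transcripts of METTL8, an enzyme that methylates tRNAs, are present in these cells. With 1 group no conditions could be compared, and no p-values are given, since an exact sign-flip test of 2 libraries cannot go below 0.5 (two-sided). The estimated counts summed to 25158962 in replicate 1 and 27143860 in replicate 2. Of genes that mark HEK293 cells, PAX2 had 33.9 and 50.1 normalised counts, LHX1 108 and 117, and EYA1 87.7 and 84.3. NEFM was low at 14.5 and 18.7, NEFL had 1868 and 1848, and VIM had 16406.5 and 15362.9. The blood marker PTPRC, the liver marker ALB and the endothelial marker CDH5 were listed at 0 in both libraries. The fibroblast marker COL1A2 was at 0 and 0.927.

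Box H/ACA RNAs fold into hairpins joined by a hinge (box H) and end with a tail that carries the ACA box, and they guide the conversion of uridine to pseudouridine by the enzyme dyskerin. SNORA RNAs act on ribosomal RNA in the nucleolus. scaRNAs act in Cajal bodies on the small nuclear RNAs of the spliceosome, and some of them carry box C/D elements, which guide 2′-O-methylation, or both kinds of element in one RNA. Most of these RNAs are cut out of the introns of host genes rather than transcribed on their own.

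The sequences of the leading members show what the class name refers to. They are given 5′ to 3′ from GENCODE v44 on GRCh38, with the ACA box near the 3′ end in capitals. SNORA73A (chr1:28507366-28507571, plus strand) and SNORA73B (chr1:28508559-28508762, plus strand), both within RCC1, are shown because they had the highest levels per length and are 93.2% identical, so that reads can fit both. SNORA63 (chr3:186787300-186787431, plus strand, within EIF4A2) and SNORA71A (chr20:38427309-38427442, minus strand, within SNHG17) are shown because their annotated ends leave 1 and 0 bases after the ACA.
SNORA73A: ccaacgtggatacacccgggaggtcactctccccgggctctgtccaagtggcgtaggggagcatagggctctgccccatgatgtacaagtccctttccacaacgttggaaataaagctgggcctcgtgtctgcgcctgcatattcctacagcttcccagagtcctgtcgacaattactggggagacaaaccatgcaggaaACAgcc
SNORA73B: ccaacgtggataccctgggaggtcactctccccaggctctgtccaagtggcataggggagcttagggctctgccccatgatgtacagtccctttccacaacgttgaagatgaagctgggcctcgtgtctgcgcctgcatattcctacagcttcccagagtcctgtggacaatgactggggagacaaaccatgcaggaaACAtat
SNORA63: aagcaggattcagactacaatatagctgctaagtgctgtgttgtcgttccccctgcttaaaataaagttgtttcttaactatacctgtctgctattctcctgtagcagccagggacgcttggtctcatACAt
SNORA71A: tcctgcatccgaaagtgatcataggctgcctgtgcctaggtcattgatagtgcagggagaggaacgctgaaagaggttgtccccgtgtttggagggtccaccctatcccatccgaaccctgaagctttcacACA

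SNORA70 within RPL10 (chrX:154400281-154400415, plus strand) and the copy SNORA70H (chr1:201978461-201978595, plus strand), which lies in no listed host on its strand, are 93.3% identical. They are shown because the first was among the 10 highest members and the copy was listed at 0 in both libraries.
SNORA70: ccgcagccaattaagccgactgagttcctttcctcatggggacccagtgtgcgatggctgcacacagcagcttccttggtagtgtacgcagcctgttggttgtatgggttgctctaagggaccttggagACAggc
SNORA70H: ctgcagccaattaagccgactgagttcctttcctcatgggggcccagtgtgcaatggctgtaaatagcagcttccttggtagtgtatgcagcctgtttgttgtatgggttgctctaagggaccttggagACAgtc

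For the scaRNAs of box H/ACA type, TGAG, the letters of the Cajal body (CAB) box, is in capitals in addition to the ACA. SCARNA13 (chr14:95533355-95533629, minus strand) lies within SNHG10 and SCARNA16 (chr17:77089307-77089493, plus strand) within SEC14L1, and they were the highest scaRNAs of this type.
SCARNA13: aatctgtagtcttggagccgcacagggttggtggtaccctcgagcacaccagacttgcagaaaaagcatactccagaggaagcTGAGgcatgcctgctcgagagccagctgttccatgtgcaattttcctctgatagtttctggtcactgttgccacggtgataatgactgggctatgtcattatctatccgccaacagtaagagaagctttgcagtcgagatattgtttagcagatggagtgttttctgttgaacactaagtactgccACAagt
SCARNA16: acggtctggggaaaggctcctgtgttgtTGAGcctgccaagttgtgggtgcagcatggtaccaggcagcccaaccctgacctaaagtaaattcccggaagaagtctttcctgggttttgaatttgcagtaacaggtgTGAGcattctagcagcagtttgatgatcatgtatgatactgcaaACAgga

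For the mixed type, the capitals mark TGATGA, the core of box C, near the 5′ end and CTGA, the letters of box D, near the 3′ end. The H/ACA part lies between them, and no ACA is marked in these RNAs. SCARNA12 ends in the letters ACA, of which the first A belongs to the marked CTGA. SCARNA12 (chr12:6967337-6967606, minus strand) lies within PHB2 and SCARNA5 (chr2:233275727-233276002, plus strand) in ATG16L1.
SCARNA12: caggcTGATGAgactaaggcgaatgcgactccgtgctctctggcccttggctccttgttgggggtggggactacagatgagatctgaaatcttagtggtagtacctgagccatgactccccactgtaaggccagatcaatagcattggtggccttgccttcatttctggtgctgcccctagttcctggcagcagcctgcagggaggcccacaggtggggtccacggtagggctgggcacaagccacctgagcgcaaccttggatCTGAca
SCARNA5: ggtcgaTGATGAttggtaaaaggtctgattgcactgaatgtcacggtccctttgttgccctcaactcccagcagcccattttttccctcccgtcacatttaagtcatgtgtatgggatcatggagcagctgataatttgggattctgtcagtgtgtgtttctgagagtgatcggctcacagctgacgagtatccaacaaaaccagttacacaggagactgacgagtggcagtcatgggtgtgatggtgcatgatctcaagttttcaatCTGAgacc

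Over the members, 140 of 210 SNORA genes and 13 of 23 SCARNA genes had an ACA exactly 3 bases before the annotated 3′ end, against 5 of 311 genes (1.61%) of the box C/D class SNORD. An ACA within the last 10 bases was found in 172 SNORA genes and in 6.11% of SNORD genes. The hinge letters ANANNA occurred in the middle of 3 equal parts of the sequence in 189 of 210 SNORA genes and 36.3% of SNORD genes. All motifs were searched on the RNA strand alone. TGAG occurred in 16 of 23 SCARNA genes, in 89 SNORA genes and in 84.6% of SNORD genes. It can overlap the letters of box D, and its position in SNORD genes was not examined. A match describes letters and does not show that they work as a box.

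Together the members held 0.169% of all estimated counts in replicate 1 (exact 95% interval 0.167 to 0.171) and 0.171% in replicate 2 (0.170 to 0.173). The mean share was 0.170% ± 0.00151 (SD, n = 2), and after division by transcript length it was 0.731%. These intervals cover counting error only. The box C/D class SNORD, with 311 listed genes, held 0.0336% and 0.0334%. The H/ACA and Cajal body genes thus held the larger share of counts in both libraries.

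Detection, defined as at least 1 normalised count in both libraries, was met by 118 of 233 members (50.6%), where 44.7% of all genes met it. It was met by 99 of 210 SNORA genes, by 19 of 23 SCARNA genes, and by 52 of 311 SNORD genes (16.7%). A further 84 members were listed at 0 in both libraries and 23 in 1 library. For a gene listed at 0, an expected count of up to 3 was allowed, which is 0.119 per 1000000 in replicate 1 and 0.111 per 1000000 in replicate 2. This limit does not cover reads assigned to near-identical copies. The mean was at least 10 normalised counts in 81 members, at least 100 in 34 and at least 1000 in 8.

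Counts were concentrated in few genes. The 3 highest members by normalised count, SNORA73A, SCARNA2 and SNORA73B, held 47.9% ± 4.74 (SD, n = 2) of the member counts, the 10 highest held 77.4% ± 0.716, and the 15 highest held 85.2% ± 0.0248. Levels of different genes are compared below per length, as normalised counts divided by transcript length and scaled to 1000000 in each library.

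SNORA73A and SNORA73B, also named U17 or E1, act in the processing of the 18S ribosomal RNA precursor rather than as pseudouridine guides. SNORA73A had 7975 normalised counts in replicate 1 and 8176 in replicate 2, and its level per length was 1427 ± 43.6 (SD, n = 2). SNORA73B had 6302 and 6598 normalised counts and a level per length of 1151 ± 52.3. SNORA73A was the higher in each library, and per length the gap was larger than their summed SDs. The 4 other genes of this family were much lower: the 6 genes summed to 14280 and 14773 normalised counts, 3 of them were at 0, and SNORA73A alone held 55.6%.

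SCARNA2, a box C/D scaRNA that guides 2′-O-methylation of the U2 small nuclear RNA, came next per length. It had 5780 and 7319 normalised counts and a level per length of 568 ± 101.7 (SD, n = 2). It lay below SNORA73B by more than the spread. At 420 nt it was among the longest members, and it was the only scaRNA with no listed host gene on its strand (chr1:109100193-109100612, plus strand), being known as a gene with its own promoter.

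The mixed scaRNAs SCARNA10 and SCARNA12 (U85 and U89) followed. SCARNA10 had 4340 normalised counts in replicate 1 and 2557 in replicate 2, with a level per length of 380 ± 134 (SD, n = 2), the widest SD of these leading genes. SCARNA12 had 2726 and 2531 normalised counts and a level per length of 354 ± 14. Their order differed between the libraries. SCARNA10 was also not separated from SCARNA2, whose gap to it was smaller than the sum of the SDs.

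SCARNA7 (U90), a box C/D scaRNA that guides methylation of the U1 small nuclear RNA, had 2623 and 1805 normalised counts. Its level per length, 244 ± 60.6 (SD, n = 2), lay below that of SCARNA12 by more than the spread. SNORA48 at 732 and 1017 normalised counts (236 ± 57.4 per length), SCARNA13 at 1631 and 1752 (224 ± 14.3 per length) and SNORA70 at 925 and 710 (220 ± 38.2 per length) could not be ordered among themselves or against SCARNA7. SCARNA13 (U93) is an unusual guide made of a tandem of H/ACA units, and it varied least of these genes.

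The next group per length was SCARNA5 at 1545 and 1080 normalised counts (173 ± 41.1 per length), SNORA63 at 666 and 570 (170 ± 16.4 per length) and SNORA71A at 649 and 582 (167 ± 10.6 per length). SCARNA5 (U87) is of the mixed type. Neighbours within this group did not differ beyond their spread. SNORA74A (U19) at 757 and 740 normalised counts (138 ± 0.359 per length) lay below SNORA71A and above SNORA52 (127 ± 1.88 per length) by more than the spread. Of the 14 neighbouring pairs among the 15 highest members, 5 were separated per length. By plain normalised counts it was 2 of 14.

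**Figure D1:**
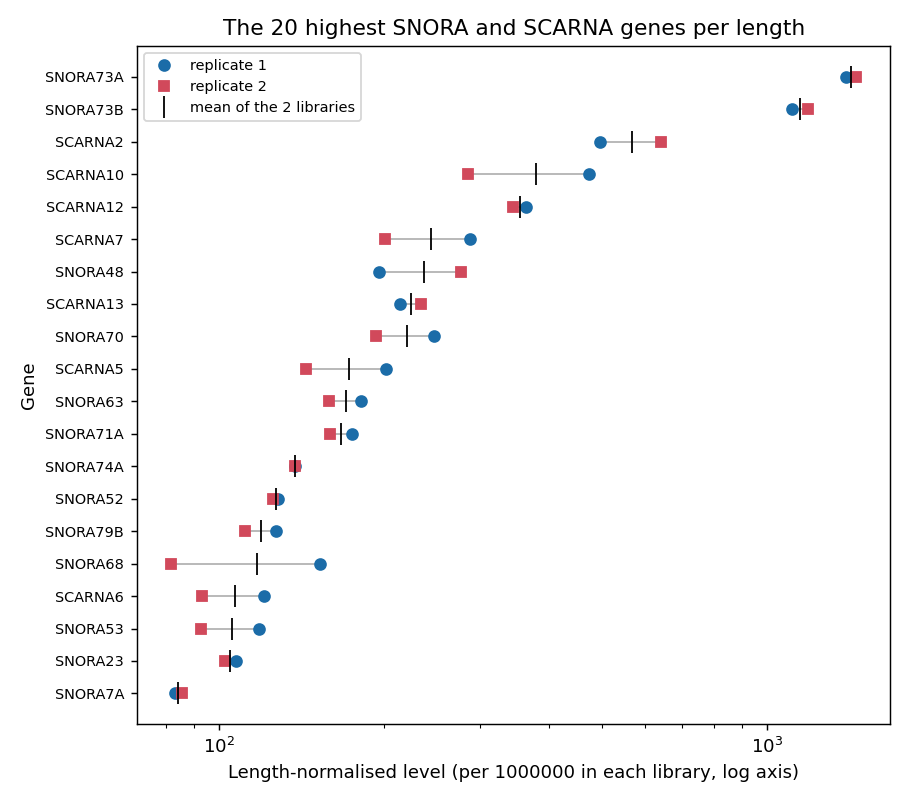
Length-normalised level (x axis, log scale, per 1000000 in each library) of the 20 highest members (y axis). Circles are replicate 1, squares replicate 2 and vertical bars their mean. SNORA73A and SNORA73B stand above all others at means of 1427 and 1151, and SCARNA10 and SNORA68 show wide gaps between the libraries.

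SNORA53 and SCARNA6 were among the 15 highest by normalised count but not per length. SNORA53 had 817 and 629 normalised counts at a length of 249 nt, which gave 106 ± 18.1 per length (SD, n = 2). SCARNA6 (U88), which shares the host ATG16L1 with SCARNA5, had 886 and 670 at 265 nt, which gave 107 ± 19.5. Both were higher in replicate 1.

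The SCARNA genes held 45.0% of member counts in replicate 1 (exact 95% interval 44.5 to 45.5) and 42.6% in replicate 2 (42.1 to 43.0), or 30.1% after division by length and 33.9% without SCARNA2. The box C/D scaRNAs summed to 8436 and 9163 normalised counts, where SCARNA2 was higher in replicate 2 (log2 difference 0.34) and SCARNA7 lower (-0.54). The mixed scaRNAs summed to 9497 and 6839, and all 4 were lower in replicate 2, from SCARNA10 at -0.76 to SCARNA12 at -0.11. The box H/ACA scaRNAs summed to 2309 and 2342, with SCARNA22 at -0.83 and SCARNA21 at 0.43 among them. The sums of a class thus did not stand for each of its genes, and the classes were not tested against each other. SNORA genes summed to 24752 and 24735.

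The H/ACA scaRNAs below SCARNA13 fell off over a wide range. SCARNA16 had 398 and 327 normalised counts, SCARNA21 had 85.7 and 116, and SCARNA22 had 103 and 57.5. These 3 lay at 70.5, 26.4 and 23.3 per length. SCARNA1 had 51.8 and 39.9 normalised counts and SCARNA4 had 7.41 and 14.8. Both are H/ACA guides with host genes on chromosome 1. SCARNA17, of the box C/D type, had 33.4 and 39.3, far below the other box C/D members SCARNA2 and SCARNA7. SCARNA15 and SCARNA21B were listed at 0 in both libraries.

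Longer members had higher levels. None of the 18 members under 120 nt was detected, against 100 of 190 from 120 to 159 nt, 5 of 9 from 160 to 199 nt and 13 of 16 of 200 nt or more. The 16 longest members held 77.4% of member counts in both libraries, and 65.1% and 65.2% per length. Across the 81 members with a mean of at least 10, Spearman's rho of length with normalised counts was 0.53 (Pearson's r 0.54 on the log2 scale). With counts per base it was 0.42 (r 0.39). These members share the same libraries and are not independent. The longest, SNORA59B at 701 nt, did not follow this pattern, with a mean of 54.4 normalised counts. Of SNORD genes, 290 of 311 were under 120 nt, and 39 of those were detected. Length also went with the kind of member. SNORA70 copies of 90 to 118 nt were 57.8 to 66.7% identical to the copy in RPL10. SCARNA2, SCARNA5, SCARNA6, SCARNA7, SCARNA10, SCARNA12 and SCARNA13 were all longer than 200 nt. TruSeq total RNA libraries were made. The part of the kind of member and of the library preparation in the relation with length was not tested.

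**Figure D2:**
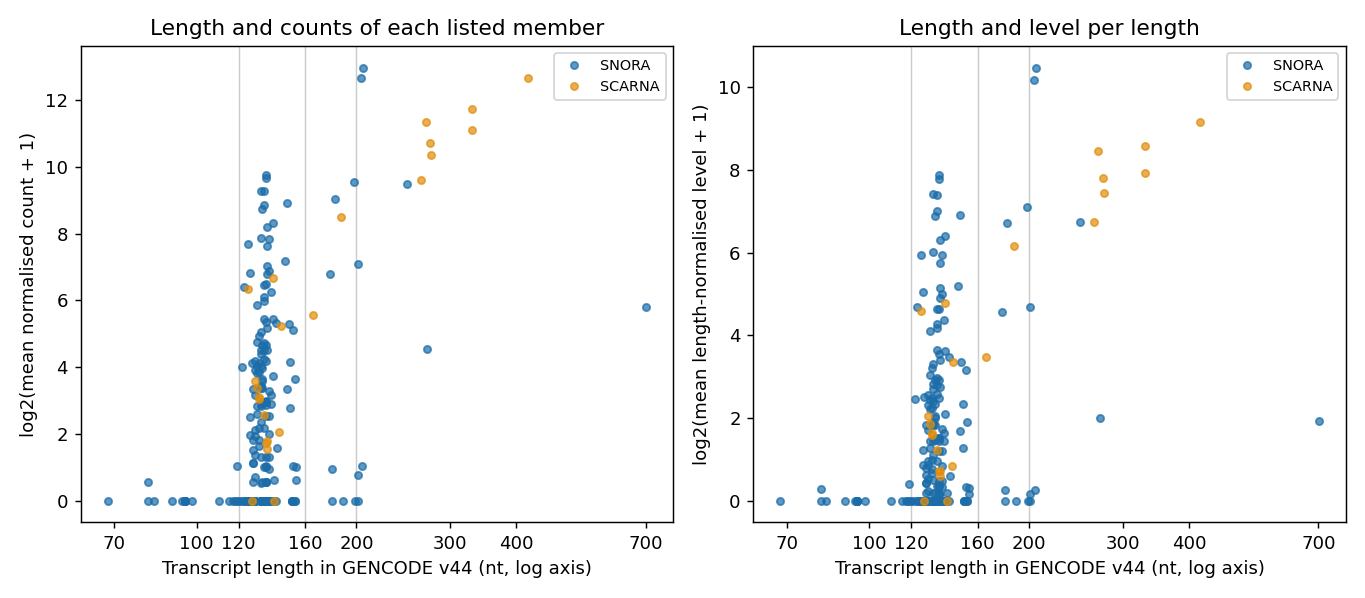
Annotated length (x axis, nt, log scale) against log2(mean normalised count + 1) on the left and log2(mean length-normalised level + 1) on the right, with 1 point for each of the 233 members and grey lines at 120, 160 and 200 nt. Members under 120 nt lie at or near 0, and 8 of the 16 members of at least 200 nt exceed 1000 normalised counts.

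Detection differed between members with and without a host gene. A listed gene on the same strand contained 175 members, and 112 of these (64.0%) were detected. Of the 58 members without such a host, 6 (10.3%) were detected and 45 were at 0 in both libraries. The 6 were SCARNA2, a pair of SNORA75 genes, SNORA11F, SNORA80C and SNORA70G, and beside SCARNA2 the highest mean among them was 16.7 normalised counts. SNORA11F, SNORA80C and SNORA70G were named after their values were seen. Protein-coding genes hosted 132 members (88 detected) and lncRNA genes hosted 40 (24 detected).

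The hosts of the leading members were themselves detected. RCC1, a chromatin-bound exchange factor for the GTPase Ran, had 3567 and 3511 normalised counts and spans both SNORA73 genes together with the lncRNA gene SNHG3 at 1890 and 1936. NCAPD2, a condensin subunit that hosts SCARNA10, had 11494 and 10954. KPNA4, an importin that hosts SCARNA7, had 1816 and 1403. The prohibitin gene PHB2 hosts SCARNA12, and the autophagy gene ATG16L1 (713 and 628) hosts SCARNA5 and SCARNA6. The translation initiation factor genes EIF4A1 (31540 and 27206) and EIF4A2 (12212 and 8631) host SNORA48 and SNORA63.

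Per base, members and hosts were set side by side for 77 members in 64 hosts, both with a mean of at least 10 and the member outside the exons of the host's canonical transcript. The median log2 ratio of member to host was 0.07 in replicate 1 and 0.31 in replicate 2 (0.19 ± 0.17, SD, n = 2), with 38 members above their host in both libraries and 31 below in both. The host length was the union of all its annotated exons. With the longest host transcript instead, the median was -0.36, so the direction of the median depends on the host length used. With a mean of at least 100 for member and host, the median was 1.5 (n = 33). That filter selects on the member's own count, the numerator of the ratio, so the rise cannot be read as a trait of these members.

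The ratio spanned a wide range. It was highest for SCARNA13 in SNHG10 (7.03 on the log2 scale), where the host had 262 and 249 normalised counts. SNORA71A in SNHG17 (6.43), SCARNA7 in KPNA4 (5.83) and SNORA73A in RCC1 (5.43) followed. The lowest was SNORA33 in the ribosomal protein gene RPS12 (-6.73). For 12 members in ribosomal protein genes the median was -3.42, and 1 of them lay above its host. For 47 members in other protein-coding genes it was 0.20, with 26 above. For 18 members in lncRNA genes, whose spliced product is often seen as a by-product of making snoRNAs, it was 1.91, with 16 above. With the longest host transcript these medians were -4.18, -0.16 and 0.77, with 0, 22 and 12 above, so the sign for the other protein-coding hosts turned. The kinds also depend on taking the host with the highest mean where several genes contain a member. SNORA73A and SNORA73B, also in SNHG3, and SCARNA16, also in SNHG20, were counted under protein-coding hosts. SNORA74A and SNORA74D, also in MATR3, were counted under lncRNA hosts. The kinds overlapped, from -3.95 to 5.83 in other protein-coding hosts and from -1.75 to 7.03 in lncRNA hosts, and they were not tested against each other. Hosts differed in level between these kinds, with medians of 18808, 2807 and 625 normalised counts, and the part of this in the ratio was not tested.

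Member and host levels per base were only weakly related over the 77 pairs (Spearman's rho 0.12, Pearson's r 0.16 on the log2 scale), where members of 1 host share its value. The gene RPS2, at 71658 and 71263 normalised counts, hosts SNORA10 and SNORA64, and both were listed at 0.

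**Figure D3:**
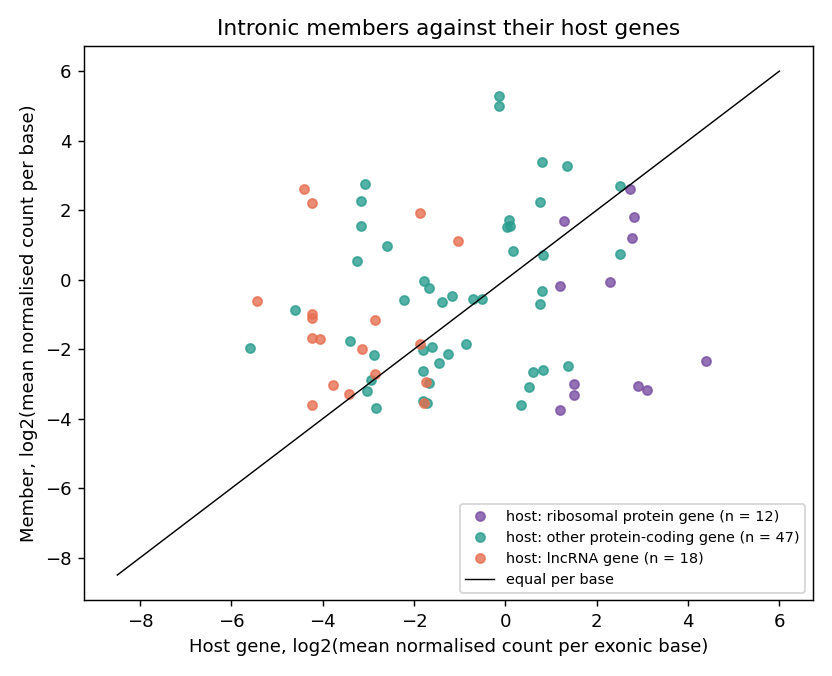
Log2 mean normalised count per exonic base of the host (x axis) against log2 mean normalised count per base of the member (y axis) for 77 members, coloured by kind of host. The members lie outside the exons of the host's canonical transcript, and some overlap exons of other transcripts. The host's length was taken over all its exons, and the line marks where both are equal. Of the 12 members in ribosomal protein genes 11 lie below the line, and 16 of the 18 in lncRNA genes lie above it.

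Several members lay in each of 25 hosts. Per base, the highest and lowest member were within 2-fold of each other in 6 of these hosts, among them RCC1 (1.24-fold) and ATG16L1 (1.62-fold), and further apart in 9, and the other 10 had a member at 0. Examples of wide ranges follow, chosen after their values were seen. SNHG17 hosts 5 SNORA71 genes, of which SNORA71A reached 649 and 582 normalised counts, SNORA71C 52.9 and 81.6, SNORA71D 54.0 and 71.4, and SNORA71B 25.6 and 19.4, and the fifth was at 0. In EIF4A2, SNORA63 had 666 and 570, SNORA81 78.7 and 142, SNORA4 2.85 and 9.99, and SNORA63B was at 0. The 3 members in KANSL2 ranged from a mean of 1.46 (SNORA2B) to 116 (SNORA2C). In TAF1D, a transcription factor gene of RNA polymerase I at 2735 and 1852, the 6 members ranged from 0 (SNORA32) to a mean of 32.3 (SNORA18).

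Overlap with other transcripts limits which reads belong to a member. An exon of another gene's transcript overlapped 65 members on the same strand, in whole or in part. These members, called under exons here, held 47.4% and 44.6% of member counts. Of them 52 lay whole within such an exon, and these held 29.7% and 31.2%. SCARNA10 was overlapped by 1 such transcript with 5804 and 4021 normalised counts, SNORA73A by 1 with 1198 and 1327, and SNORA63 by 4 with 1659 and 1344 in sum. How the reads were divided between a member and such a transcript was estimated by the authors' counting and could not be checked here.

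Near-identical copies pose the same question among members. Of the 233, 66 were at least 90% identical to another member, and they held 39.3% and 42.0% of member counts, mostly SNORA73A and SNORA73B. SNORA11D and SNORA11E are identical in sequence and had the same values, 1.80 and 0.603 normalised counts, which an even division of shared reads gives. SNORA70 was the largest family with 36 listed genes, and the copy in RPL10 held 98.3% of its counts. Of the others 27 were at 0 in both libraries, among them SNORA70H, and 5 were at least 90% identical to the RPL10 copy. In the SNORA63 family of 11 genes the highest held 97.4%, and in the SNORA74 family of 8 genes SNORA74A held 80.8%.

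The libraries gave similar levels over the members, with Pearson's r 0.969 on the log2(normalised count + 1) scale and Spearman's rho 0.930 over 233 genes, beside 0.983 and 0.921 over all genes. Genes are not independent replicates, so this describes the pair of libraries. Of the 81 members with a mean of at least 10, 6 (7.41%) differed more than 2-fold, where 5.23% of all such genes did. They split into 3 (3.70%) higher in replicate 2, beside 2.95% of all genes, and 3 lower, beside 2.29%. These shares are near the background. With a mean of at least 1 the share was 20.3% (27 of 133), and with a mean of at least 100 it was 2.94% (1 of 34). The share over all genes was not computed at these further filters, so they cannot be read against a background. The counting interval of the log2 difference left out 0 in 31 of 81 members (38.3%), beside 52.6% of all genes. The median log2 difference, replicate 2 minus replicate 1, was -0.11 for members and -0.06 for all genes with a mean of at least 10. Of these members 33 were higher in replicate 2 and 48 lower, so 40.7% were higher, beside 44.8% of all such genes.

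Of the 10 largest differences, 7 were in members with under 40 normalised counts in each library. SNORA8 was listed at 0 in replicate 1 and had 24.6 normalised counts in replicate 2, while its host TAF1D had 2735 and 1852. An SNORA75 gene with no listed host had 26.5 and 6.95 (log2 difference -1.79, exact 95% interval -3.48 to -0.78). SNORA31B in TPT1 had 8.01 and 28.3 (1.70, interval 0.56 to 3.05). All 3 were under 31 counts in each library, which makes their intervals wide or unbounded.

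Of the 3 with higher counts, SNORA67 in EIF4A1 was the one beyond 2-fold, at 130 and 327 normalised counts (log2 difference 1.32, exact 95% interval 1.03 to 1.63). The 5 other transcripts with an exon overlapping it summed to 787 and 1616, so they were also higher in replicate 2, while EIF4A1 as a whole was lower. SNORA48 in the same gene moved the same way, with a log2 difference of 0.47 (interval 0.34 to 0.61). The transcripts with an exon overlapping SNORA48 summed to 378 and 389. Among the 10 largest differences, such transcripts went the other way for SNORA8 (882 and 648), SNORA31B (1201 and 970) and SNORA50C (24.5 and 33.4). They went the same way as the member for SNORA25, SNORA27 and SNORA68, and SNORA75, SNORA33 and SCARNA4 had none. Whether reads shared with such transcripts set any difference was not tested.

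SNORA50C had 34.5 and 13.8 normalised counts (log2 difference -1.27) and SNORA33 had 34.9 and 16.7 (-1.02). SNORA25 at 29.5 and 14.3, SNORA27 at 148 and 74.6, SNORA68 at 564 and 296 and SCARNA4 at 7.41 and 14.8 completed the 10 largest and stayed within 2-fold on the log2(normalised count + 1) scale. Among the highest members, SCARNA10 differed by -0.76 (exact 95% interval -0.83 to -0.69), and the transcript overlapping it was lower in replicate 2 as well. SNORA73A differed by 0.04 (interval -0.01 to 0.08).

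**Figure D4:**
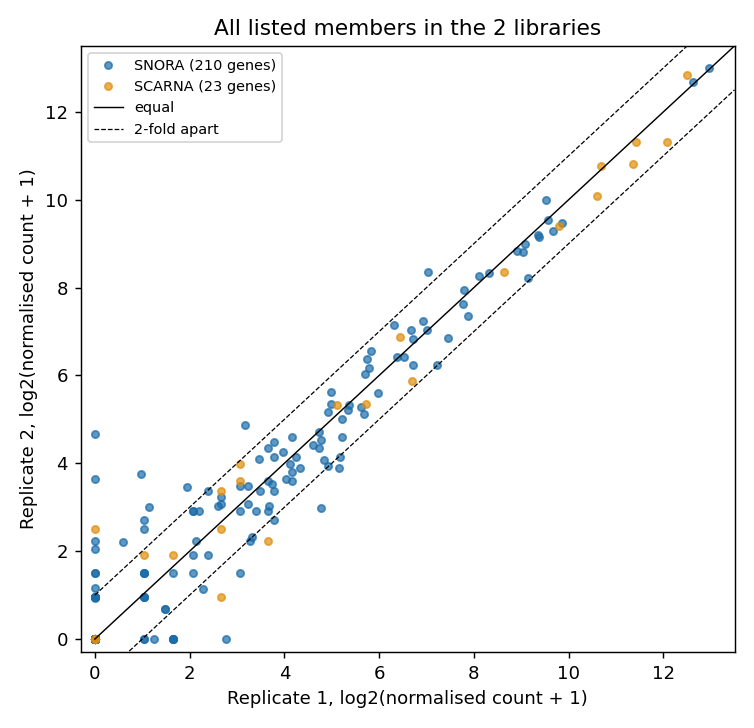
Log2(normalised count + 1) of the 210 SNORA and 23 SCARNA genes in replicate 1 (x axis) and replicate 2 (y axis), with lines for equal values and for 2-fold differences. Points scatter widely at low values and stay close to the line at high ones, where 1 of 34 members with a mean of at least 100 lies outside the 2-fold lines. The share over all genes at that mean was not computed.

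The proteins and relatives of these RNAs gave the setting. The 4 core proteins of H/ACA particles were detected, with the dyskerin gene DKC1 at 4169 and 3555 normalised counts, NHP2 at 4200 and 4115, NOP10 at 1086 and 1135, and GAR1 at 304 and 210. The assembly factors NAF1 (485 and 466) and SHQ1 (865 and 642) were present too. WRAP53, which brings scaRNAs to Cajal bodies, had 581 and 633, and COIL, the gene of the Cajal body protein coilin, had 1256 and 957. TERC, the telomerase RNA, which carries an H/ACA domain, had 222 and 288. SCARNA9, set aside by its gene type, had 597 and 327. It is of the box C/D type, in which SCARNA7 was also lower in replicate 2, while SCARNA2 and SCARNA17 were higher.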

How the data were processed

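Ribosomal RNA-depleted total RNA of 1 group of 2 HEK293 libraries was sequenced. Tools in the submitters' processing notes are FastQC, STAR 2.7.0d, RSEM 1.3.3 and R 3.6.3. The study names GRCh38.p13, Ensembl release 104, for the alignment of its sequencing reads, and the strand setting is not given in the sources used here. By the labels, libraries were made with a TruSeq kit. The authors deposited 1 estimated count per transcript, made with RSEM and divided by neither length nor depth. The second deposited value is a normalised signal, obtained by dividing each estimated count by a size factor (0.945 in replicate 1, 1.08 in replicate 2), and it is called the normalised count here. Tables restricted to METTL8 transcripts were not used.

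The 206696 transcripts were matched without version to GENCODE v44, which left out 4479, and were summed per gene. All 233 members had the same version. Length-normalised levels are normalised counts divided by transcript length and scaled to 1000000 per library, with no effective length correction. A host is a listed gene on the same strand, of no small RNA type, that contains the member, the one with the highest mean where there were several. Identity was computed between member sequences. Box classes of scaRNAs came from background knowledge.

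Values are means ± SD over 2 libraries. Neighbours in an order of genes were called different where neither library reversed them and their means lay further apart than their summed SDs. Shares have exact (Clopper-Pearson) 95% intervals, and log2 differences have intervals from the exact binomial split of the counts, both for counting error only. Log2 values used a pseudocount of 1. Only the call of a difference over 2-fold was tested on simulated counts, which held counting noise alone. Python 3.11.15, pandas 2.3.3, NumPy 2.4.6 and SciPy 1.17.1 were used. Alternatives were each library alone, division by length, other denominators, filters, pseudocounts and host lengths.

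The genes named were the 15 highest by mean normalised count, the 10 highest per base, SCARNA genes with a mean of at least 10, families of near-identical copies, the 10 largest differences between libraries, hosts of the 15 highest, and TERC with 8 genes of H/ACA particles and Cajal bodies. Others named, such as members that share a host, were chosen after their values were seen. Members and lists were chosen with earlier results of these data known.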

Additional observations from a re-analysis of the deposited data

How the results depend on the processing

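No paired analysis was possible because there was 1 group. Besides leaving out a library, 26 alternatives were run: 7 left their value about where it was, and 19 moved it, by more than 1 SD for means, 1.5 times for counts and calls or the second decimal for medians and r, and 1 of these turned its sign. Division by length gave a library share of 0.731%, a scaRNA share of 30.1%, a share of 68.1% for the 10 highest, 50.6% of counts under exons of other genes and 5 separated neighbour pairs. The library share was 0.205% without misc_RNA, ribozyme and snRNA genes, and counts under exons on either strand were 49.9%. A minimum of 10 in both libraries left 75 members detected. The share over 2-fold was 20.3% at a mean of at least 1, 2.94% at 100 and 4.17% without members under exons of other genes. No share over all genes was computed for these settings. The median log2 difference was -0.026 on counts per 1000000, -0.076 at a mean of at least 100 and 0 with no filter, and r was 0.941 with a pseudocount of 0.1. The median ratio to the host was -0.36 with the longest host transcript, which reversed it, and 1.5 at a mean of at least 100. Chosen after seeing the data, leaving out SCARNA2 gave a scaRNA share of 33.9%, and leaving out members under exons a host ratio of 0.64. In these the cause was not tested. With each library alone, the library share was 0.169 to 0.171%, the scaRNA share 42.6 to 45.0%, the 10 highest 76.8 to 77.9%, counts under exons 44.6 to 47.4%, members detected 128 to 132 and the host ratio 0.07 to 0.31. A single library always lies within 1 SD of the mean of 2, so this says nothing about stability. Depth limits the low members: 84 were at 0 in both libraries, where an expected count of up to 3 is allowed.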
